A study of Mus musculus with 4 samples.

Results

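The genes examined here are 50 genes that carry out DNA replication and mitosis. They were picked by name from the 51826 genes of the expression table. By role, 26 act in S phase and 24 in G2 and M phase. All 50 had a row, all were above 0 in each library, and all 50 passed the filter for testing, which asked for 1 TPM or more on average (TPM is transcript abundance per length, scaled to the same total in each library). The cells were mouse embryonic stem cells of C57BL/6 background taken towards mesoderm and collected on day 3, and labelled as mesoderm-like. There were 2 libraries of wild-type cells and 2 of Stk40-/- cells, which lack the pseudokinase gene Stk40. Every library went through the same protocol. The cells grew in BMP4 (10 ng/ml) for 2 days, followed by 1 uM CHIR99021, which inhibits GSK3, and 0.5% DMSO for the last day. The stem cells had been kept on growth-arrested mouse embryonic fibroblasts and were moved to gelatin for 1 passage to remove these. The labels do not say that the libraries came from separate cultures, and the spread that the p-values rest on may be technical. A genotype may stand for 1 line, so a difference between genotypes and one between lines cannot be told apart. In these bulk libraries, fewer cells in a phase of the cycle and less RNA per cell cannot be told apart either.

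Genome duplication starts with licensing, in which the origin recognition complex, CDC6 and CDT1 load the MCM2-7 helicase onto DNA. CDC45 and GINS then switch the helicase on, and polymerases copy the strands around the PCNA clamp. Many of the genes for these steps are switched on at the G1 to S transition by E2F transcription factors. Genes of G2 and mitosis follow later. They are repressed by the DREAM complex and activated by B-MYB and FOXM1 with the MuvB proteins, which contact a promoter word named the cell cycle genes homology region (CHR), often close to CCAAT words bound by NF-Y. The G1 phase of mouse embryonic stem cells is short and these genes are abundant in them.

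The 2 sets of genes differed in how often their promoters held E2F and CHR words. In the RefSeq promoter table (GRCm38.p6, 250 bases before to 50 bases after each gene start), 41 of the 50 genes had an entry, 21 of S phase and 20 of G2 and M. The 150 bases before the start are shown for 3 S phase and 3 G2 and M genes that recur in the results and show both classes, 5′ to 3′ on the strand of the gene. Most members hold no word of their class in these bases, Tyms of S phase and Birc5 of G2 and M among them. Even the 250 bases before the start hold an E2F word for only 9 of 21 S phase genes. They hold a CHR word for only 8 of 20 G2 and M genes. Capitals mark, on either strand, 3 kinds of word. The canonical E2F word counted was TTCCCGC. A variant counted with it was TTGGCGC, another variant counted was TTCGCGC, and the last variant counted was TTGCCGC. A CHR word is TTTGAA or, as a variant, TTCGAA. The NF-Y word is CCAAT. E2F words on opposite strands can overlap and then form a single longer run of capitals.
Mcm6 (MCM helicase subunit, chr1:128359706-128359855, minus strand): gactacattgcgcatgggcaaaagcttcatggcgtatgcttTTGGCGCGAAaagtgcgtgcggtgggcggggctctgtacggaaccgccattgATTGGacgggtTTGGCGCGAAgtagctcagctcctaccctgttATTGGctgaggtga
Pola1 (catalytic subunit of the primase-coupled polymerase, chrX:93632156-93632305, minus strand): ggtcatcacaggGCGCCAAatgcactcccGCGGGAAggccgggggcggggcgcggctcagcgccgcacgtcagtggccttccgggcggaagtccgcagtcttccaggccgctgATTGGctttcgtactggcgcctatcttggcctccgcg
Rrm1 (large subunit of ribonucleotide reductase, chr7:102441545-102441694, plus strand): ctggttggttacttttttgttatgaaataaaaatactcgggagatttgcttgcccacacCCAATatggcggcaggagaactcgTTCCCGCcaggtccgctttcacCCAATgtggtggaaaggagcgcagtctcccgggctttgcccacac
Kif11 (motor that pushes spindle poles apart, chr19:37376232-37376381, plus strand): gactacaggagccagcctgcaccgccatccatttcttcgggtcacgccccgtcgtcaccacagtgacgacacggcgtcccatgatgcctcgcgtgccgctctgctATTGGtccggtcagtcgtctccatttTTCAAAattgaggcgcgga
Top2a (topoisomerase that untangles sister chromatids, chr11:99024190-99024339, minus strand): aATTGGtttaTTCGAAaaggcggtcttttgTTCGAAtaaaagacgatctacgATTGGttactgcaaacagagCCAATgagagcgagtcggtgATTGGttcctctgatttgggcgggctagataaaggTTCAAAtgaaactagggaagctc
Mki67 (the Ki-67 protein that coats mitotic chromosomes, chr7:135716380-135716529, minus strand): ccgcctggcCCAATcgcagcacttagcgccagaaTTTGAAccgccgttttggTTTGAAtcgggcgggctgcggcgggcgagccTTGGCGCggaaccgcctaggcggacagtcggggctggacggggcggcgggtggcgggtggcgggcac

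The shown Mcm6, Pola1 and Rrm1 stretches hold E2F words and no CHR word, whereas those of Kif11 and Top2a hold CHR words and no E2F word. That of Mki67 holds both. CCAAT is in every stretch shown, so it does not separate them. Counts over the whole window are of genes. A gene with several promoters, such as E2f2 or Mcm7, counted if any of them held the word. An E2F word was found for 13 of 21 S phase genes (61.9%) and 3 of 20 G2 and M genes (15%). Of the 27025 genes in the table, 10.9% had it. A CHR word was found for 15 of 20 G2 and M genes (75%) and 5 of 21 S phase genes (23.8%). The share of all genes was 21.7%. CCAAT was found for 16 of 20 G2 and M genes (80%) and 14 of 21 S phase genes (66.7%), against 41.1%. CHR and CCAAT were both found for 70% of the G2 and M genes, 23.8% of the S phase genes and 9.65% of all genes. With only the 250 bases before the start, the CHR count of the G2 and M genes was 8 of 20 (40%), against 19.6% of all genes. The E2F count of the S phase genes was then 9 of 21 (42.9%), against 9.01% of all genes. The letters are a description and do not show that a factor binds.

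**Figure D1:**
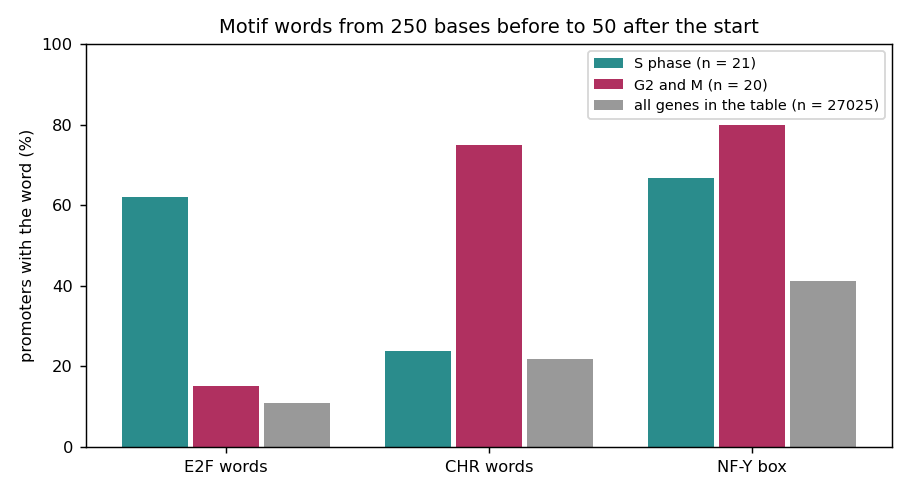
Share of genes (percent, vertical axis) with each word in the 300-base window of any of their promoters. Bars are for S phase genes (n = 21), G2 and M genes (n = 20) and all 27025 genes of the table. NF-Y box stands for CCAAT. E2F words were most frequent for S phase genes (61.9%) and CHR words for G2 and M genes (75%).

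The labels were checked first. Stk40 (ENSMUSG00000042608.15, GRCm38 chr4:126103957-126141029) had 28.9 and 39.9 TPM in wild type against 3.54 and 3.17 TPM in Stk40-/-, as the genotypes state (log2 difference -3.01, limma adjusted p = 0.139). T, which encodes the mesoderm factor Brachyury, was at 1025 and 535 TPM in wild type versus 355 and 217 TPM in Stk40-/-. Among later mesoderm genes, Msgn1 was at 90.6 and 7.22 TPM in wild type against 0.975 and 0 TPM in Stk40-/-, Tbx6 was at 2.33 TPM or less and Mesp1 at 0.177 TPM or less. Pou5f1, a pluripotency factor, was at 370 to 473 TPM. Streak and mesoderm markers were thus detected together with pluripotency markers. All 8 streak and mesoderm markers that were tested had a negative log2 difference, 7 of them without overlap (16.6% of all tested genes were lower without overlap). Eomes overlapped, at 3.91 and 2.37 TPM in wild type against 2.82 and 2.51 TPM in Stk40-/-. Summed over 10 streak and mesoderm markers, the libraries held 1388 and 731 TPM in wild type and 462 and 312 TPM in Stk40-/-. The 8 pluripotency markers gave 904 and 1006 TPM against 1115 and 1073 TPM. Their log2 differences went both ways, 4 positive and 4 negative. Without overlap, 3 were higher in Stk40-/- and 1, Zfp42, was lower (log2 difference -0.44). Nanog, among the higher ones, was at 113 and 132 TPM against 219 and 166 TPM. The 12 fibroblast markers summed to 27.0 and 36.6 TPM in wild type and 25.0 and 21.7 TPM in Stk40-/-, with Col1a1 at 3.74 to 7.29 TPM and 0 to 4 of the 12 at 0 in a library. The 7 endoderm markers summed to 4.59 to 8.74 TPM, with Ttr at 0 in each library. The part of these marker differences in the results below was not tested. Sequencing depth is unknown from TPM, so no counting interval is given.

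The median differences between genotypes were small in these genes, some intervals were wide, and most G2 and M genes leaned slightly towards Stk40-/-. The median log2 difference, Stk40-/- minus wild type on the log2(TPM + 1) scale, was 0.23 over the G2 and M genes and 0.09 over the S phase genes, against 0.07 over all 15739 tested genes. Whether the 2 sets differ from each other was not tested. Of the G2 and M genes, 22 of 24 had a positive difference and only Birc5 and Mad2l1 a negative one. Of the S phase genes, 17 of 26 were positive. Positive values made up 58.6% of all tested genes. With each library centred on its median, the S phase genes were 13 positive and 13 negative, and the G2 and M genes 18 and 6, against 47.7% positive over all genes. The differences that turned negative were small ones, in Orc6, Mcm5, Rrm1, Ccne2, Cdk1, Cenpa, Nuf2 and Kif20a. The summed level of the S phase genes was 2836 and 2863 TPM in wild type and 2974 and 2999 TPM in Stk40-/-. That of the G2 and M genes was 3348 and 2911 TPM in wild type and 3741 and 3406 TPM in Stk40-/-.

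No gene passed the test. In limma with Benjamini-Hochberg adjustment over all 15739 genes, 0 of the 50 had an adjusted p under 0.05, where the background was 0%. Stk40 itself was not called (limma adjusted p = 0.139), so the lack of calls does not show that the 50 genes were unchanged. At an unadjusted p under 0.05 there were 8 of the 50, against 11.0% of all genes. Of these, 3 were S phase genes and 5 were G2 and M genes. In 21 of the 50, the lower Stk40-/- value exceeded the higher wild-type value (27.5% of all tested genes did so), and in 3 the reverse held (16.6%). The other 26 overlapped. In either direction the groups did not overlap for 12 of 26 S phase genes and 12 of 24 G2 and M genes, both shares near the background of 44.0%. All 12 of the G2 and M genes were higher in Stk40-/-, whereas the S phase genes comprised 9 higher and 3 lower. The split depended on the scaling. With centred libraries it was 11 higher and 2 lower for G2 and M, and 6 and 7 for S phase (all genes, 18.7% higher). Within bins of length and GC content it was 10 and 3, and 8 and 8 (all genes, 21.6% higher). Leaving out wild-type library 2 brought the G2 and M median to 0.11, with 18 of 24 positive, so part of that median rests on this library.

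**Figure D2:**
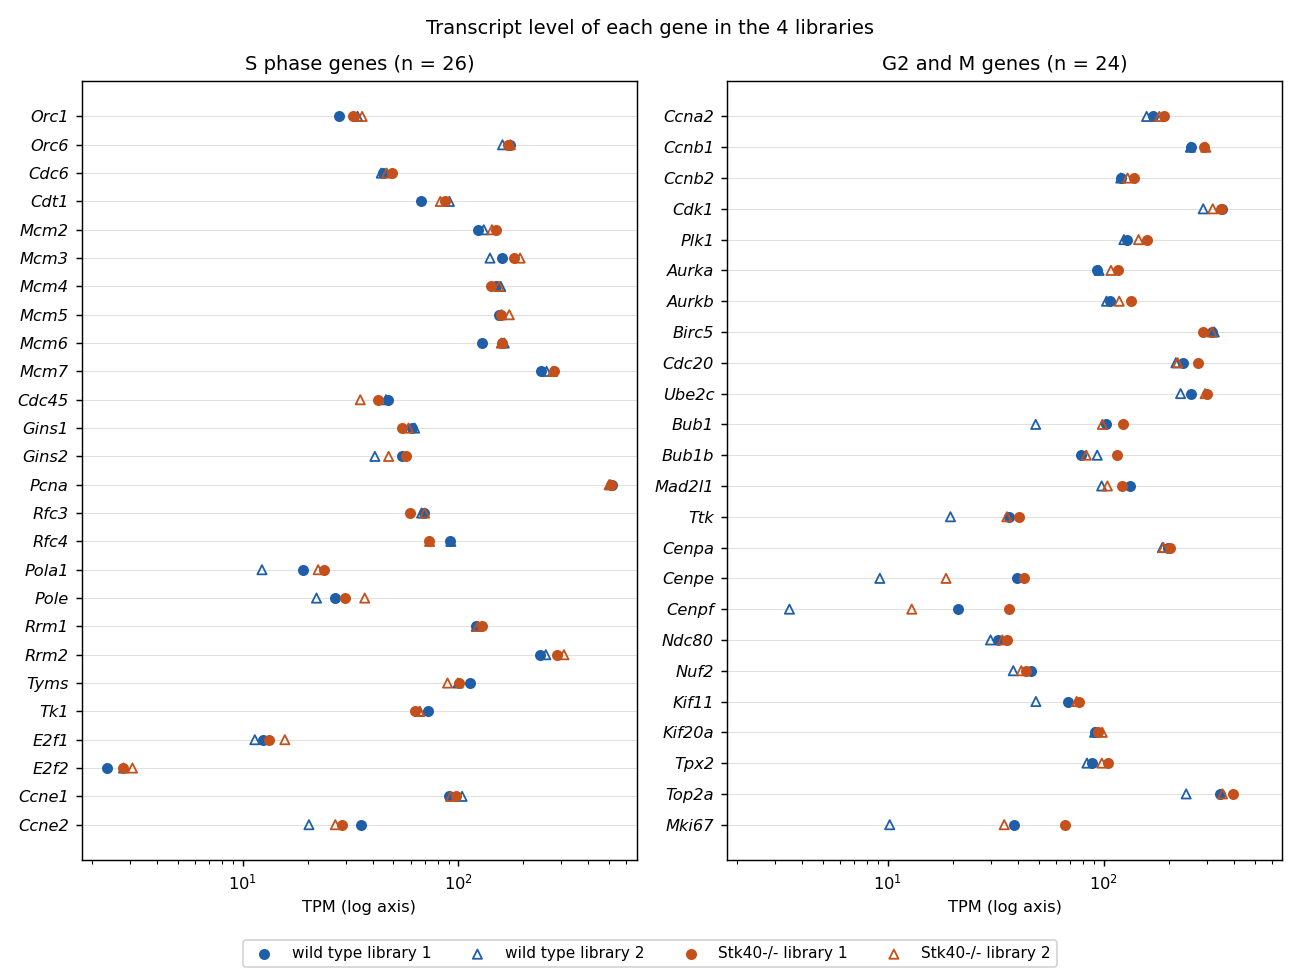
Transcript level (TPM, log axis) of each of the 50 genes in the 4 libraries, with filled circles for library 1, open triangles for library 2, blue for wild type and orange for Stk40-/-. Levels ran from E2f2 at 2.35 to 3.09 TPM to Pcna at 499 to 514 TPM, and wild-type library 2 was far to the left for Cenpf, Cenpe and Mki67.

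Among the licensing genes (10 genes, median log2 difference 0.13), 4 were higher in Stk40-/- without overlap and 0 were lower. Mcm3, a subunit of the MCM helicase, had the smallest unadjusted p. It was at 160 and 140 TPM in wild type versus 180 and 193 TPM in Stk40-/- (log2 difference 0.31, SE 0.10, 95% interval 0.04 to 0.58, limma adjusted p = 0.430). The groups of Mcm3 did not overlap. The other MCM subunits differed in whether their groups overlapped, and differences between subunits were not tested. Mcm2 was at 123 and 131 TPM against 149 and 143 TPM, and Mcm7 at 241 and 256 TPM against 277 and 273 TPM, both without overlap. Mcm4 was at 149 and 157 TPM in wild type versus 142 and 154 TPM in Stk40-/-, with overlapping groups. The MCM subunits act as a single ring, but transcript levels do not give the amounts of protein. In wild-type library 1 these levels ran from 123 TPM for Mcm2 to 241 TPM for Mcm7. The loader Cdc6 was at 44.7 and 43.9 TPM in wild type versus 49.1 and 46.5 TPM in Stk40-/-. Its partner Cdt1 overlapped, at 67.0 and 90.8 TPM against 87.0 and 82.4 TPM. So did Mcm5, Mcm6 and the origin recognition genes Orc1 and Orc6. Of these, Mcm6 was at 128 and 163 TPM in wild type versus 160 and 158 TPM in Stk40-/-, so its low value was in wild-type library 1, and Orc1 was at 28.0 and 34.1 TPM against 32.6 and 35.8 TPM.

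Of the 3 genes that switch the helicase on, 2 were lower in Stk40-/- and 1 had a positive difference. Cdc45, whose product joins MCM2-7 in the active helicase, was at 47.2 and 46.2 TPM in wild type versus 42.3 and 35.1 TPM in Stk40-/- (log2 difference -0.27, SE 0.13, 95% interval -0.62 to 0.08, limma adjusted p = 0.525). Gins1, a GINS subunit, was at 61.1 and 62.7 TPM against 54.5 and 58.7 TPM. Both genes were lower in Stk40-/- without overlap, as were 16.6% of all tested genes. For Cdc45 the difference was -0.14 with Stk40-/- library 2 left out. Gins2, another subunit of the same complex, overlapped at 54.8 and 41.0 TPM in wild type and 57.2 and 47.5 TPM in Stk40-/-.

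At the replication fork the members went both ways (5 genes, median -0.02). Rfc4, a subunit of the clamp loader, was the S phase gene with the most negative difference. It was at 91.4 and 92.2 TPM in wild type versus 73.1 and 73.5 TPM in Stk40-/- (log2 difference -0.32, SE 0.08, 95% interval -0.53 to -0.11, unadjusted p = 0.0132, limma adjusted p = 0.386). The libraries of a genotype differed by under 1 TPM, and the estimate was -0.31 to -0.33 with any library left out. Its fellow subunit Rfc3 overlapped, at 69.6 and 67.5 TPM against 59.5 and 69.7 TPM. Pcna, the clamp and the most abundant of the S phase genes, was at 514 and 506 TPM in wild type versus 509 and 499 TPM in Stk40-/-, a log2 difference of -0.02 with a 95% interval of -0.16 to 0.13. The catalytic polymerase subunits had the largest positive differences of the S phase genes. Pola1 was at 19.0 and 12.3 TPM in wild type versus 23.8 and 22.4 TPM in Stk40-/- (log2 difference 0.56, SE 0.24, 95% interval -0.08 to 1.20, limma adjusted p = 0.490). Leaving out wild-type library 2 gave 0.27 and leaving out library 1 gave 0.86. Pole, the leading-strand polymerase, was at 26.7 and 22.0 TPM against 29.7 and 36.8 TPM (log2 difference 0.43, SE 0.17, 95% interval -0.04 to 0.90, limma adjusted p = 0.478), or 0.28 with Stk40-/- library 2 left out. In both polymerase genes the Stk40-/- libraries were the higher ones.

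Of the genes for deoxynucleotide supply (4 genes, median -0.02), the pair of ribonucleotide reductase genes was higher in Stk40-/- without overlap. The others of this list overlapped, and 27.5% of all tested genes were higher without overlap. Rrm2, the subunit whose level follows S phase, was at 239 and 254 TPM in wild type versus 287 and 308 TPM in Stk40-/- (log2 difference 0.27, SE 0.08, 95% interval 0.06 to 0.47, limma adjusted p = 0.401). Rrm1 was at 121 TPM in each wild-type sample versus 129 and 123 TPM in Stk40-/-, a log2 difference of 0.06 that turned to -0.02 with libraries centred and -0.16 within bins of length and GC content. Thymidylate synthase, Tyms, was at 113 and 99.6 TPM in wild type versus 101 and 89.0 TPM in Stk40-/-, and thymidine kinase, Tk1, at 72.0 and 66.1 TPM against 63.1 and 66.2 TPM. Among the regulators of S phase entry (4 genes, median 0.10), E2f1 was at 12.4 and 11.4 TPM in wild type versus 13.3 and 15.7 TPM in Stk40-/- (log2 difference 0.26, SE 0.16, limma adjusted p = 0.604). It was the only regulator without overlap, and its difference was 0.15 with Stk40-/- library 2 left out. The cyclin genes Ccne1, at 90.6 and 104 TPM against 97.7 and 92.0 TPM, and Ccne2, at 35.4 and 20.3 TPM against 29.0 and 26.9 TPM, overlapped, as did E2f2, the least abundant of the 50 genes. S phase genes with an E2F word had a median log2 difference of 0.14 (13 genes, -0.32 to 0.56) and those without it a median of -0.03 (8 genes, -0.27 to 0.26). By the 250 bases before the start these medians were 0.14 (9 genes) and 0.02 (12 genes).

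**Figure D3:**
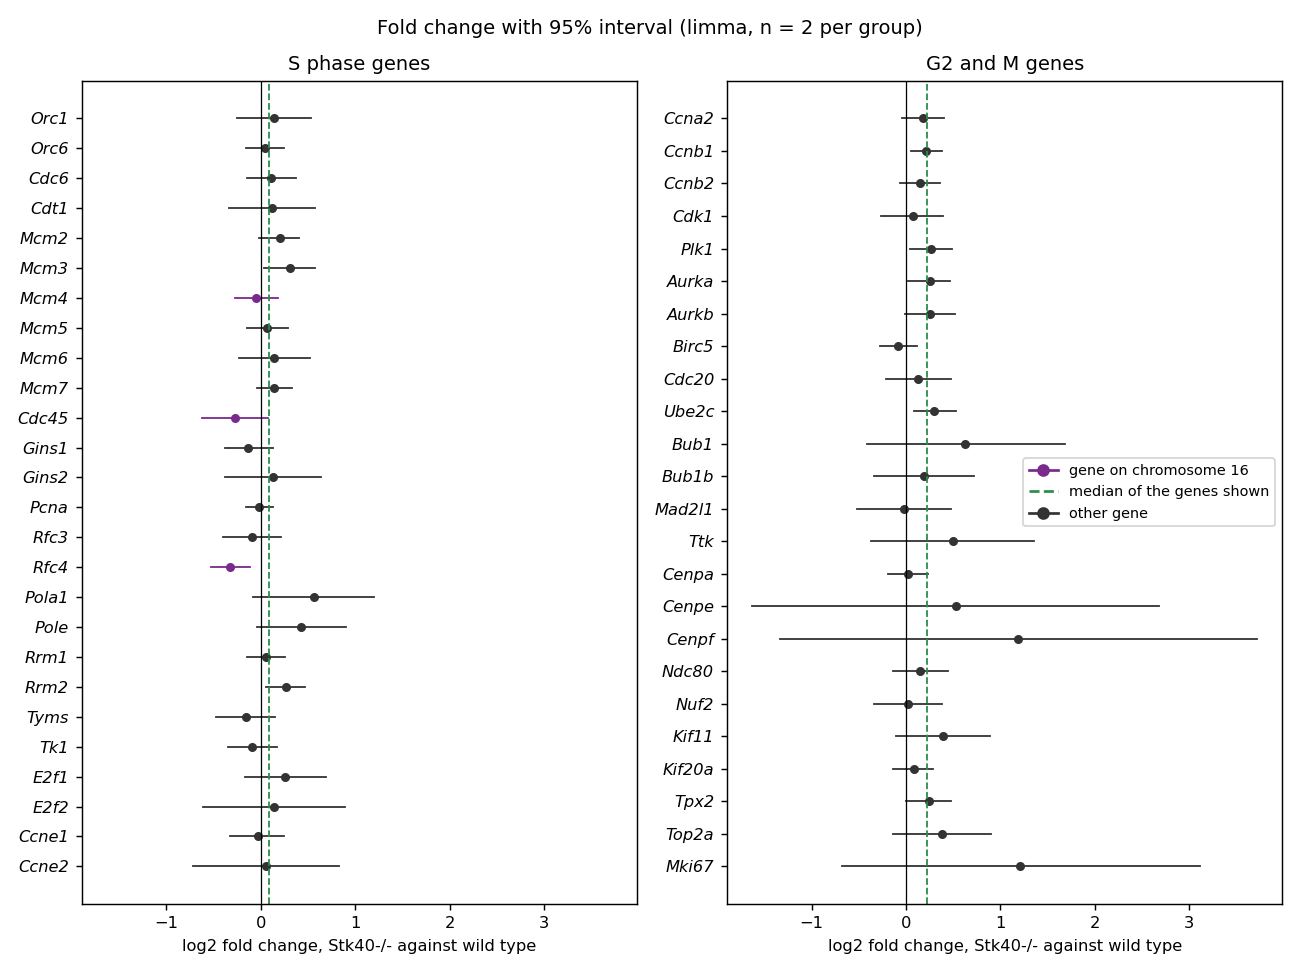
Log2 difference of each gene, Stk40-/- minus wild type on the log2(TPM + 1) scale, with its 95% interval from limma; genes on chromosome 16 are in purple and the dashed line is the median of the genes shown. Most points of the G2 and M genes lie to the right of 0, and the intervals of Cenpf, Cenpe and Mki67 are far wider than those of Rfc4, Ccnb1 or Ube2c.

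The 3 S phase genes on chromosome 16 need to be read against their chromosome. Over the 328 protein-coding genes of chromosome 16 that averaged 5 TPM or more, the median log2 difference was -0.19, and 50.3% were lower in Stk40-/- without overlap. Elsewhere the median was 0.08, 15.9% were lower without overlap, and the medians of the 19 other chromosomes ran from 0.04 to 0.11. The shift was seen in both pairs of libraries, at -0.20 for library 1 and -0.17 for library 2. Rfc4 (chr16:23113943-23127737), Cdc45 (chr16:18780447-18811987) and Mcm4 (chr16:15623897-15637400) are the members there, all on the minus strand. Set against the chromosome median, their differences were -0.13, -0.08 and 0.14. On this chromosome 85 of the 328 genes were lower than Rfc4 and 111 were lower than Cdc45. So 2 of the 3 S phase genes that were lower without overlap, Rfc4 and Cdc45, lie where most genes were lower. Gins1, on chromosome 2, is the exception. Without the 3 genes the S phase median was 0.12. The part of the chromosome-wide shift in the values of these 3 genes was not tested further.

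**Figure D4:**
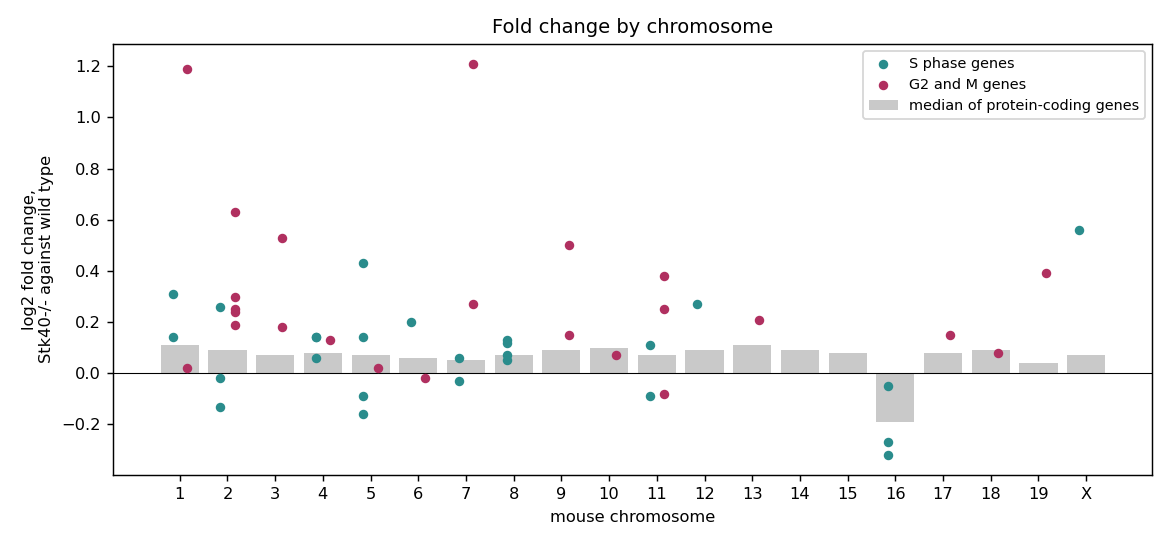
Median log2 difference, Stk40-/- minus wild type, of the protein-coding genes on each chromosome (average of 5 TPM or more), with the members drawn as points on their chromosome. Chromosome 16 stands at -0.19 and the others at 0.04 to 0.11, and Rfc4 and Cdc45 lie below the chromosome 16 median while Mcm4 lies above it.

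Most genes of G2 and mitosis were slightly higher in Stk40-/-. Among the mitotic cyclins and their kinase (4 genes, median 0.17), 3 were higher without overlap, as were 27.5% of all tested genes. Ccnb1, which encodes cyclin B1, was at 254 and 252 TPM in wild type versus 291 and 297 TPM in Stk40-/- (log2 difference 0.21, SE 0.06, 95% interval 0.05 to 0.38, unadjusted p = 0.0211, limma adjusted p = 0.401). Ccna2 was at 170 and 158 TPM against 191 and 181 TPM, and Ccnb2 at 120 TPM in both wild-type libraries against 138 and 129 TPM. Their partner Cdk1 overlapped, at 353 and 289 TPM in wild type and 349 and 320 TPM in Stk40-/-, and its log2 difference of 0.07 (SE 0.12) became -0.08 without wild-type library 2 and -0.01 when libraries were centred on their medians.

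The mitotic kinases (4 genes with the passenger subunit Birc5, median 0.25) were higher in Stk40-/- without overlap in 3 cases. Of all tested genes 27.5% were. Plk1, which acts at centrosomes, kinetochores and the midzone, was at 128 and 124 TPM in wild type versus 159 and 145 TPM in Stk40-/- (log2 difference 0.27, SE 0.08, 95% interval 0.04 to 0.49, limma adjusted p = 0.430). Aurka, the spindle pole kinase, was at 92.8 and 95.2 TPM against 116 and 108 TPM, and Aurkb, the centromere kinase, at 107 and 103 TPM against 134 and 118 TPM. Birc5, which encodes survivin and holds Aurora B in place, was at 316 and 325 TPM in wild type versus 289 and 317 TPM in Stk40-/- (log2 difference -0.08, SE 0.07, limma adjusted p = 0.671). So the kinase Aurkb and its partner Birc5 had differences of opposite sign, and only the first was without overlap. For the anaphase promoting complex, Ube2c was at 255 and 227 TPM in wild type versus 300 and 295 TPM in Stk40-/- (log2 difference 0.30, SE 0.08, 95% interval 0.08 to 0.53, limma adjusted p = 0.401). Cdc20, the activator of the complex, overlapped, at 232 and 216 TPM against 273 and 220 TPM.

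Spindle motors and assembly factors were higher in all 3 cases without overlap (median 0.24), as were 27.5% of all tested genes. Tpx2, which activates Aurora A, was at 88.1 and 83.6 TPM in wild type versus 105 and 98.0 TPM in Stk40-/- (log2 difference 0.24, SE 0.09, limma adjusted p = 0.449). Kif11, the motor that pushes spindle poles apart, was at 68.1 and 48.5 TPM against 76.5 and 74.9 TPM. Kif20a, a motor of cytokinesis, was at 91.3 and 90.7 TPM against 93.8 and 98.4 TPM. The size of the Kif11 difference depended on wild-type library 2, since it was 0.39 with all libraries and 0.15 without that library. Among G2 and M genes with a CHR word the median log2 difference was 0.27 (15 genes, 0.02 to 1.21), and among those without it 0.02 (5 genes, -0.08 to 0.53). This rests on words after the start: by the 250 bases before it, the medians were 0.24 (8 genes) and 0.23 (12 genes).

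The spindle checkpoint genes (4 genes, median 0.35) all overlapped, as did the centromere and kinetochore genes (5 genes, median 0.15) apart from Ndc80. Ndc80, which binds microtubules at the kinetochore, was at 32.3 and 29.9 TPM in wild type versus 35.5 and 33.9 TPM in Stk40-/- (log2 difference 0.15, SE 0.11, limma adjusted p = 0.639). Mad2l1, the checkpoint protein that inhibits Cdc20, was at 133 and 97.8 TPM against 122 and 104 TPM (log2 difference -0.02, SE 0.19, limma adjusted p = 0.977). Bub1, the checkpoint kinase at kinetochores, was at 102 and 48.4 TPM in wild type versus 123 and 98.6 TPM in Stk40-/- (log2 difference 0.63, SE 0.39, 95% interval -0.41 to 1.68, limma adjusted p = 0.603). For Bub1 the difference came to 0.10 when wild-type library 2 was left out and became 1.17 in the absence of library 1. Ttk was at 36.4 and 19.5 TPM in wild type versus 40.7 and 35.6 TPM in Stk40-/-, and the checkpoint gene Bub1b at 78.5 and 93.3 TPM against 115 and 83.0 TPM. Both overlapped, and in Ttk only wild-type library 2 stood apart. Cenpa, the histone variant that marks centromeres, was at 199 and 187 TPM in wild type versus 202 and 189 TPM in Stk40-/-. Nuf2, the partner of NDC80, was at 46.1 and 38.1 TPM against 43.6 and 41.5 TPM.

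The largest differences were in genes whose libraries of a genotype were far apart. Mki67 (ENSMUSG00000031004.8; chr7:135689784-135716361) was at 38.5 and 10.2 TPM in wild type versus 66.2 and 34.6 TPM in Stk40-/- (log2 difference 1.21, SE 0.70, 95% interval -0.68 to 3.11, limma adjusted p = 0.586). Cenpf (ENSMUSG00000026605.14; chr1:189640606-189688086), a large kinetochore protein, was at 21.2 and 3.50 TPM in wild type versus 36.6 and 12.9 TPM in Stk40-/- (log2 difference 1.19, SE 0.93, 95% interval -1.33 to 3.72, limma adjusted p = 0.639). In both genes library 1 of wild type lay above library 2 of Stk40-/-, so the groups overlapped. Cenpe (ENSMUSG00000045328.11; chr3:135212537-135273611), a kinetochore motor, was at 39.6 and 9.18 TPM in wild type versus 42.8 and 18.6 TPM in Stk40-/-. With wild-type library 2 left out, the differences were 0.31 for Mki67, 0.04 for Cenpf and -0.47 for Cenpe. With library 1 left out instead, they were 2.12, 2.35 and 1.52. Leaving out Stk40-/- library 1 gave 0.76 for Mki67 and 0.48 for Cenpf, and leaving out Stk40-/- library 2 gave 1.91 for Cenpf. Top2a, the most abundant G2 and M gene, was at 344 and 241 TPM in wild type versus 396 and 355 TPM in Stk40-/- (log2 difference 0.38, SE 0.19, 95% interval -0.14 to 0.90, limma adjusted p = 0.542), without overlap. Its difference was 0.12 with wild-type library 2 left out and 0.63 with library 1 left out.

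Library 2 was below library 1 in both genotypes for most G2 and M genes. In wild type 21 of 24 were lower in library 2 (53.0% of all tested genes were), and in Stk40-/- also 21 of 24 (54.0%). Wild-type library 2 held the lowest of the 4 values in 21 of 24 (31.6% of all genes), and Stk40-/- library 1 the highest in 18 (32.2%). The S phase genes had no such order, with 8 of 26 lowest in wild-type library 2. The mean log2 level of the G2 and M genes minus that of the S phase genes was 0.55 and 0.15 in wild type and 0.70 and 0.44 in Stk40-/-. The groups therefore overlapped, as wild-type library 1 lay above Stk40-/- library 2. Within a library number, the median G2 and M difference between genotypes was 0.20 for library 1 and 0.19 for library 2, close to the pooled 0.23.

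The gap between libraries of a genotype was widest for 3 genes with long transcripts. Library 2 minus library 1, in log2, was -2.30 in wild type and -1.43 in Stk40-/- for Cenpf, whose longest transcript has 11130 bases. It was -2.00 and -1.16 for Cenpe (7910 bases) and -1.82 and -0.92 for Mki67 (10061 bases). Such gaps were rare. Of 10090 protein-coding genes that averaged 5 TPM or more, 11 (0.109%) had a wild-type gap as low as that of Cenpf, 23 (0.228%) as low as Cenpe and 34 (0.337%) as low as Mki67. Bub1 and Ttk, an essential checkpoint kinase, had gaps of -1.07 and -0.87 in wild type but only -0.31 and -0.19 in Stk40-/-, with shorter transcripts. Over 49 of the members (E2f2 was under 5 TPM), the wild-type gap and transcript length had a Pearson correlation of -0.74 and a Spearman correlation of -0.45. Over the 10090 genes these were -0.05 and -0.02. The wild-type and Stk40-/- gaps correlated at 0.82 (Spearman 0.45) over the members and 0.25 over all these genes. The points share libraries, and genes are not independent replicates.

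Wide gaps also occurred outside the members. Among all 2252 genes with a transcript over 5000 bases, the median wild-type gap was -0.03, and among the 8 members of that length it was -0.55. In the 680 that also had a GC content under 44%, it was -0.28, against -0.55 for 6 members. The widest wild-type gap of a gene over 5000 bases was -3.17. Some mitosis partners with long transcripts had wide gaps too. Kif20b (5564 bases), a cytokinesis motor, was at -1.72 in wild type and -0.96 in Stk40-/-. Smc2 (5404 bases), a condensin subunit, was at -1.32 and -0.36. Gap and length did not always go together, as the long Espl1 (6658 bases) was at 0.09 and 0.03. Among shorter ones, Smc4 (4316 bases) was at -1.25 and -0.54, and the replication partner Mtbp (3197 bases) at -1.10 and 0.18. The genotype difference also went with length over all genes, from a median of -0.10 for transcripts of at most 1000 bases to 0.24 for those over 10000 bases. Without the members over 5000 bases the median difference was 0.19 for the other 19 G2 and M genes and 0.07 for the S phase genes. With values centred within bins of length and GC content, an alternative added after the data were seen, the medians were 0.16 and 0.04. The labels name reads of 100 and of 150 bases without assigning them to libraries.

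**Figure D5:**
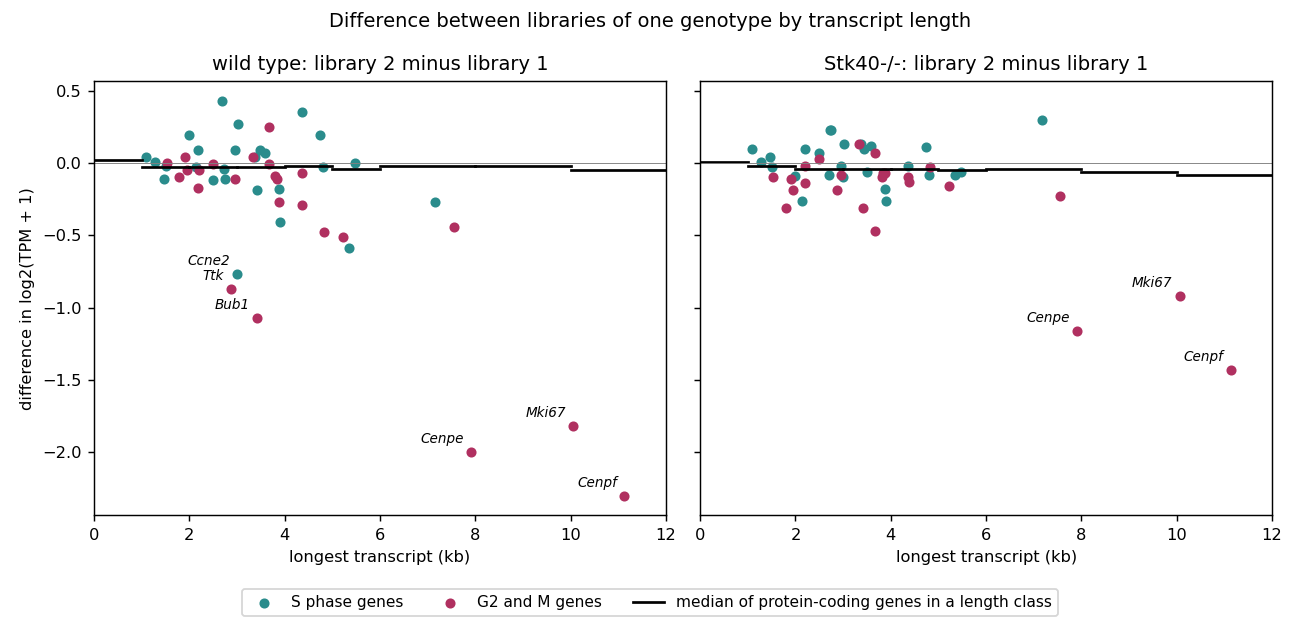
Library 2 minus library 1 in log2(TPM + 1) for each member against the length of its longest transcript in kb, in wild type (left) and Stk40-/- (right), with S phase genes in green, G2 and M genes in red and the median of protein-coding genes per length class as black steps. Cenpf, Cenpe and Mki67 lie at -1.82 or lower in wild type and at -0.92 or lower in Stk40-/-, while the black steps stay near 0.

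Of other genes of the same processes, listed by function, 0 passed the test. Over all tested genes 58.6% were positive, 27.5% were higher without overlap and 16.6% lower. Of 43 replication partners 34 were positive, 23 were higher in Stk40-/- without overlap and 4 lower, with a median log2 difference of 0.17. Of 50 mitosis partners 46 were positive, 25 were higher without overlap and 0 lower, with a median of 0.21. With libraries centred, these medians were 0.09 and 0.13. At an unadjusted p under 0.05 there were 7 of the first (16.3%) and 7 of the second (14.0%), against 11.0% of all genes. The mitosis partner Foxm1, which encodes the activator of the G2 and M programme, had 50.9 and 52.8 TPM in wild type against 73.2 and 67.4 TPM in Stk40-/- (log2 difference 0.43, limma adjusted p = 0.351). Anln, the cytokinesis scaffold anillin, was at 47.7 and 46.5 TPM against 77.7 and 64.9 TPM (0.58, limma adjusted p = 0.335), and Cenpk, a kinetochore subunit, at 21.2 and 19.7 TPM against 29.9 and 33.6 TPM (0.61, limma adjusted p = 0.333). All 3 were named because they had the smallest unadjusted p of their list, a choice that favours genes without overlap. They were higher in both Stk40-/- libraries. In replication, Tipin, which protects stalled forks, was at 222 and 212 TPM in wild type versus 278 and 324 TPM in Stk40-/- (0.47, limma adjusted p = 0.334). Pold2, a subunit of the lagging-strand polymerase, was at 62.4 and 75.2 TPM against 108 and 98.7 TPM (0.58, limma adjusted p = 0.343), and Uhrf1, which links replication to DNA methylation, at 152 and 154 TPM against 178 and 192 TPM (0.27, limma adjusted p = 0.401). These replication genes, named by the same rule, were also higher in both Stk40-/- libraries.

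Of 16 genes that restrain the cycle, 15 were tested (Cdkn2c was under 1 TPM on average). Among them 10 were positive, 5 were higher and 3 lower without overlap, and the median was 0.14. As shares, 66.7% were positive and 53.3% did not overlap, against 58.6% and 44.0% of all genes, and the median was 0.06 with libraries centred, 0.05 without Stk40-/- library 1 and 0.03 without wild-type library 2. Cdkn1c, which encodes the CDK inhibitor p57, had the most negative difference. It was at 39.6 and 36.0 TPM in wild type versus 9.77 and 16.7 TPM in Stk40-/- (log2 difference -1.49, SE 0.27, 95% interval -2.23 to -0.75, limma adjusted p = 0.306), and lower in both Stk40-/- libraries. Over the alternatives its log2 difference ran from -1.85 to -1.13. Cdkn1a, which encodes the inhibitor p21, was at 112 and 109 TPM against 114 and 110 TPM. Rb1, the retinoblastoma repressor of E2F, was at 10.6 and 6.31 TPM in wild type versus 12.3 and 20.6 TPM in Stk40-/- (0.88, limma adjusted p = 0.482), and E2f8, a repressor of the E2F family, at 8.51 and 11.5 TPM against 14.6 and 13.8 TPM (0.48, limma adjusted p = 0.484). Cdkn1c, Rb1 and E2f8 were named by the same rule of smallest unadjusted p. Both repressor genes were higher in Stk40-/- without overlap. The Rb1 difference was 0.53 with Stk40-/- library 2 left out and 0.55 with wild-type library 2 left out, and that of E2f8 was 0.28 with wild-type library 1 left out.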

How the data were processed

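Polyadenylated RNA from 2 wild-type and 2 Stk40-/- samples was sequenced. The table deposited by the authors gives TPM for each gene (per the file headers), summing to 1000000 in each library. CASAVA 1.7, Salmon 0.8.2 and hg38 are named per the submitters' processing notes. That build is human although the gene IDs are mouse Ensembl IDs, and the sources used here do not give the annotation. Salmon divides reads among similar transcripts, so genes with near-identical copies are less certain. Per the labels' protocols reads were 100 or 150 bases long on different instruments. TPM keeps no depth. There were 0 per-sample columns unused.

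Groups and replicate numbers came from the sample titles. Genes averaging 1 TPM or more entered the test on log2(TPM + 1), which understates changes of low genes, with limma 3.58.1 in R 4.3.3 (empirical Bayes with intensity trend, no block, Benjamini-Hochberg threshold 0.05). The procedure was tested on simulated data with known changes. The check that such changes were called used more libraries per group than the 2 here. How many are called with 2 per group is not reported here. The smallest p of an exact permutation test of 2 against 2 libraries is 0.333, so single values carry no such test. Gene positions, transcript lengths and GC content came from GENCODE vM21 (GRCm38), where 51633 IDs matched without version and 47648 with it. Sgo1 and Sgo2a were found under older symbols.

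The members and lists were chosen with earlier results of these data known. Values in every library were given by rule for the members of each phase with the lowest and highest differences and highest levels, for the member with the smallest unadjusted p in each role, and for the 3 genes with the smallest unadjusted p in each partner list. Mcm2, Mcm4, Mcm7, Cdc6, Cdt1, Gins1, Gins2, Rfc3, Rrm1, Tyms, Tk1, Ccne1, Ccne2, Ccna2, Ccnb2, Aurka, Aurkb, Cdc20, Kif11, Kif20a, Cenpa, Cenpe, Cdkn1a, Mcm6, Orc1, Ttk, Bub1b and Nuf2 were added after the values were seen. Chromosomes and transcript lengths were also examined after the values were seen.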

Additional observations from a re-analysis of the deposited data

How the results depend on the processing

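No gene was called in any of the alternatives: pseudocounts of 0.1 and 0.01, filters above 0 TPM and at 5 TPM, no intensity trend, rescaling without mitochondrial and ribosomal protein genes, centring, a replicate block, and each library left out (smallest adjusted p 0.0694 to 0.319 over them). The S phase median (0.09) was 0.01 with libraries centred on their medians (G2 and M: 0.15, from 0.23), 0.07 with the 5 TPM filter, and, in alternatives added after seeing the data, 0.04 within bins of length and GC content, 0.12 without chromosome 16 members and 0.07 without members over 5000 bases. Leaving out 1 library gave 0.05 to 0.09 for S phase and 0.11 to 0.29 for G2 and M. Counts without overlap then compare 1 library with 2, and ran from 16 to 22 for S phase and 12 to 23 for G2 and M, where 68.5% to 72.4% of all genes did not overlap. Cdk1 changed sign when centred (-0.01) and, over the left-out libraries, ran from -0.08 (without wild-type library 2) to 0.21. Mad2l1 ran from -0.24 to 0.20 and was positive without Stk40-/- library 2 (0.09) and without wild-type library 1 (0.20). The CHR count was 8 with bases before the start only. The cause of these shifts was not tested.

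The labels do not say what a replicate number marks. Deviations of same-numbered libraries correlated at 0.09 over the 15739 tested genes, and they were not treated as pairs, although most G2 and M genes were lower in library 2 of both genotypes. With the replicate block, 0 genes were called, medians stayed at 0.09 and 0.23, and 2118 genes in place of 1730 had an unadjusted p under 0.05.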
